A study of Homo sapiens and Mus musculus with 92 samples.

Results

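Transcripts of 10 factors that pause RNA polymerase II (Pol II) or travel with it during elongation were followed in HEL cells after knockdown (KD) of MLL1 or of AF9. They are the 4 genes of negative elongation factor NELF (NELFA, NELFB, NELFCD and NELFE), the 2 genes of DSIF (SUPT5H and SUPT4H1), SUPT6H, which encodes SPT6, and 3 subunits of the PAF1 complex (PAF1, CTR9 and LEO1). Members were chosen by gene symbol, and all 10 are among the 28103 gene symbols of both count tables and passed the filter on low values in each comparison. HEL is an established human erythroleukemia cell line without an MLL1 rearrangement, which the labels describe as human erythroblasts. In the MLL1 experiment 3 libraries of control cells (genotype WT in the labels) were compared with 3 libraries of cells with MLL1 knockdown. In the AF9 experiment 2 libraries of control cells (also labelled WT) were compared with 2 libraries of cells with AF9 knockdown. According to the study's methods KD and control cells were both transduced with lentiviral shRNA and kept in puromycin, the controls with a TRC control shRNA. RNA-seq was done with 1 shRNA for each target, and the cells are transduced populations, not clones. Nothing in the labels says that replicates came from separate transductions, so the p values below measure the spread between these libraries only.

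NELF and DSIF bind Pol II soon after initiation and hold it near the promoter. When the kinase P-TEFb phosphorylates NELF, DSIF and Pol II, NELF leaves, and DSIF, SPT6 and the PAF1 complex remain with the polymerase as it moves through the gene. AF9 is a subunit of the super elongation complex, which contains P-TEFb, and MLL1 is a histone H3 methyltransferase that binds unmethylated CpG at promoters. The comparison asks whether the transcripts of the pausing and elongation machinery themselves shift when either protein is depleted.

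The shRNA target sites, read from the study's list of oligonucleotides, are shown because they identify the perturbation. They are given 5′ to 3′ in the sense of the mRNA, with the 7 bases that pair with positions 2 to 8 of the guide strand (its seed) in capitals.
MLL1 shRNA #1: gcactgttaaacaTTCCACTt
AF9 shRNA #1: ttcaaagcctcacAAATTAAt
The first site lies in coding sequence of exon 3 of 36 of KMT2A, the gene for MLL1 (hg38, chr11:118474149-118474169, plus strand), and the second in coding sequence of exon 5 of 11 of MLLT3, the gene for AF9 (hg38, chr9:20414247-20414267, minus strand), and each occurs once in the genome. KMT2A stood at 1293 CPM in the mean of the controls (SD 32.9, n = 3) and at 821 CPM (SD 11.9, n = 3) in MLL1 KD cells, which is 63.5% of control, with all KD libraries below all control libraries. In the test across genes its adjusted p was 0.0723 (0.0416 to 0.477 with 1 library left out), and 3.5e-07 with the replicate number as a block (edgeR's quasi-likelihood test, Benjamini-Hochberg adjustment). MLLT3 fell to 18.6% of control in AF9 KD cells, from 538 (SD 14.6, n = 2) to 100.02 CPM (SD 10.4, n = 2) (edgeR adjusted p = 3.2e-08). Each target gene also had a lower mean in the other experiment. KMT2A stood at 80.2% of control in AF9 KD cells without overlap (log2 fold change -0.32, edgeR adjusted p = 0.0200, and -0.21 with 0.0666 under GC content offsets, described below). MLLT3 stood at 82.2% in MLL1 KD cells with overlap (log2 fold change -0.28, edgeR adjusted p = 0.615, and 0.0175 with the replicate block). The seed of the MLL1 guide has no match in the annotated 3′ ends of the members' mRNAs, where 13.9% of 18910 genes have one. The seed of the AF9 guide has 1 match, in NELFA, where 26.5% of genes have one. Whether either guide acts on a member's mRNA was not tested.

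Library totals ran from 6966345 to 10380241 counts in the MLL1 experiment and from 12278989 to 14232408 in the AF9 experiment. CPM are counts scaled to the same library total, with edgeR's TMM factors. Replicate 1 of both groups of the MLL1 experiment stood apart from replicates 2 and 3, and its part in the members is given below. At least 1 CPM in every library was reached by 17 of 18 erythroid markers in both groups of the MLL1 experiment. In the AF9 experiment 16 did so in control and 17 in KD cells. SLC4A1, MPO and CD3E stayed under 1 CPM in all libraries. Depending on the group, 2 to 3 of 10 monocyte and granulocyte markers reached 1 CPM in every library. So did 2 to 3 of 8 lymphoid and 5 to 6 of 9 megakaryocyte markers. The summed erythroid markers ran from 3619 to 3763 CPM in control and from 3069 to 3266 CPM in KD cells of the MLL1 experiment, and from 12640 to 12750 CPM in control and from 9296 to 11257 CPM in KD cells of the AF9 experiment. In the same order of groups, the summed levels of 10 monocyte and granulocyte markers ran from 23.4 to 33.5 and from 16.1 to 29.4 CPM in the MLL1 experiment, and from 90.4 to 95.7 and from 67.8 to 77.6 CPM in the AF9 experiment. Those of 8 lymphoid markers ran from 12.4 to 15.8 and from 23.7 to 25.1 CPM, and from 7.64 to 8.21 and from 7.64 to 11.3 CPM. Those of 9 megakaryocyte markers ran from 2227 to 2438 and from 1836 to 2130 CPM, and from 1311 to 1444 and from 1282 to 1627 CPM. The part of these shifts in the members' results was not tested, and in bulk RNA fewer cells of a kind and less RNA per cell cannot be told apart.

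In levels per transcript length (TPM, counts divided by gene length and scaled to the same total), SUPT4H1, the small DSIF subunit, was the highest member in every group and NELFE, the RNA-binding NELF subunit, the lowest. In the controls of the MLL1 experiment SUPT4H1 had 168 ± 46.6 TPM (SD, n = 3) and lay apart from SUPT6H at 115 ± 12.5 TPM. The next neighbours down the order, SUPT6H, NELFB, PAF1, SUPT5H, CTR9, LEO1, NELFA and NELFCD, each overlapped the one after it between libraries, ending with NELFCD at 49.0 ± 18.7 TPM. NELFE at 16.5 ± 2.46 TPM lay apart below it. In the controls of the AF9 experiment the order was SUPT4H1 (212 ± 5.61 TPM, SD, n = 2), CTR9 (177 ± 19.1 TPM), LEO1 (149.8 ± 7.72 TPM), SUPT6H (94.8 ± 2.22 TPM), PAF1 (87.0 ± 1.11 TPM), SUPT5H (84.8 ± 1.06 TPM), NELFB (57.4 ± 8.29 TPM), NELFCD (32.0 ± 3.42 TPM), NELFA (25.9 ± 3.84 TPM) and NELFE, between 18.4 and 23.6 TPM. Of these neighbours NELFA and NELFE overlapped between libraries, and the others did not. CTR9 and LEO1 thus held a higher place in the AF9 experiment and NELFA and NELFB a lower one, but the experiments were done apart and their controls were not tested against each other. With the length of 1 canonical transcript per gene in place of merged exons SUPT4H1 (145 TPM in the MLL1 experiment, 156 TPM in the AF9 experiment) and NELFE (18.8 and 20.2 TPM) kept the ends of the order in the controls. SUPT5H then rose to the second place in the MLL1 experiment with 121 TPM, so the order in between rests on the length used. By that length SUPT5H stood first after either knockdown in the mean, with 142 TPM after MLL1 KD and 140.4 TPM after AF9 KD. After MLL1 KD its libraries (131 to 157 TPM) overlapped those of SUPT6H (119 to 156 TPM). In AF9 KD replicate 1 it had 132.5 TPM and SUPT4H1 132.0 TPM. These changes of order were not tested.

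**Figure D1:**
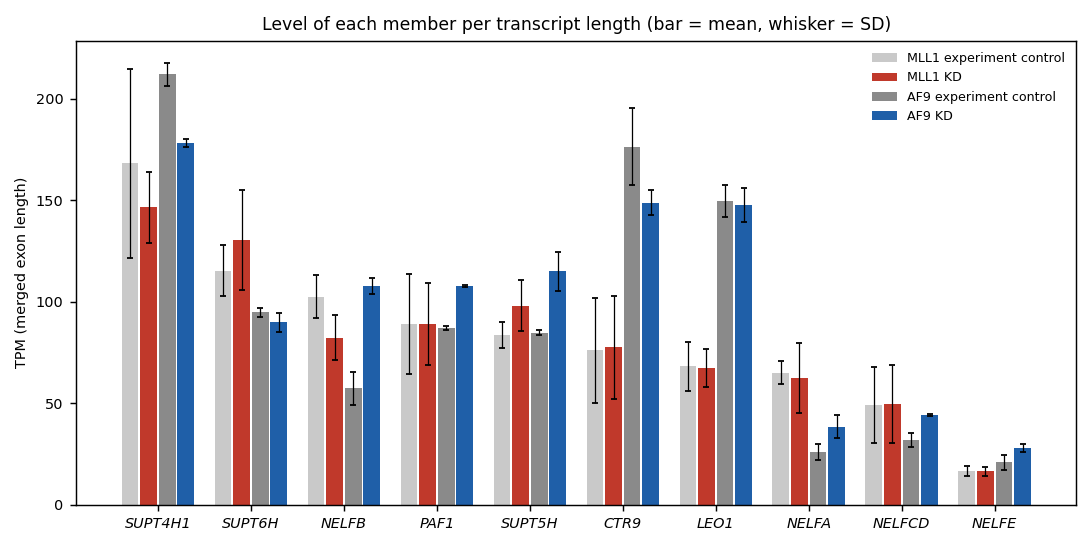
TPM of the 10 members from the merged exon length, as bars of the group mean with the SD as whisker, for the controls (n = 3) and MLL1 KD cells (n = 3) of the MLL1 experiment and the controls (n = 2) and AF9 KD cells (n = 2) of the AF9 experiment. SUPT4H1 is highest and NELFE lowest in each group, and CTR9 has 76.2 TPM in the controls of the MLL1 experiment against 177 TPM in those of the AF9 experiment.

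The low level of NELFE comes with a limit on its counting. NELFE lies in the major histocompatibility region (hg38, chromosome 6, 31952087 to 31959038, minus strand), and the sequences of all 9 of its exons long enough to search were found again on 5 alternate contigs of hg38. DDX39B from the same region was listed with 0 counts in every library of the MLL1 experiment and with 0 to 1 counts in those of the AF9 experiment. RPS18, also from that region, was counted, with a mean of 235 TPM in the MLL1 experiment and 701 TPM in the AF9 experiment. The medians of 79 other ribosomal protein genes were 503 and 880 TPM. The 173 coding genes of that region had a median of 1.48 TPM in the MLL1 experiment and 1.93 TPM in the AF9 experiment, and all 19195 coding genes matched had 6.85 and 6.28 TPM. Whether reads of NELFE were left out for matching several places was not tested, and its level is not compared further with that of the other subunits. For SUPT4H1, 63.7% of the merged exons overlap an annotated readthrough gene on the same strand, so the assignment of its reads is uncertain. For NELFCD, 97.4% overlap CTSZ on the opposite strand, from which strand-specific counting separates it.

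Promoters are shown for NELFB and CTR9, the members with the largest rise and the second largest fall in AF9 KD cells without GC content offsets (below), since the window of SUPT4H1, which had the largest fall, overlaps other annotated transcripts. Each is the 250 bases before the start, 5′ to 3′ on the strand of the gene (RefSeq, build GRCh38.p14), and capitals mark the GC box GGGCGG and the ETS-type motif CCGGAAG on either strand.
NELFB (chr9:137255077-137255326, plus strand): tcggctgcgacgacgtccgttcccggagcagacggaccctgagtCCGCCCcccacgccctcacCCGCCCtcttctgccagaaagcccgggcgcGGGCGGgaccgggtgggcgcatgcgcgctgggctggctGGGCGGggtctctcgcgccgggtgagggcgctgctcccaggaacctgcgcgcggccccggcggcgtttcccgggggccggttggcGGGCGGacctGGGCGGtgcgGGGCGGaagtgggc
CTR9 (chr11:10750996-10751245, plus strand): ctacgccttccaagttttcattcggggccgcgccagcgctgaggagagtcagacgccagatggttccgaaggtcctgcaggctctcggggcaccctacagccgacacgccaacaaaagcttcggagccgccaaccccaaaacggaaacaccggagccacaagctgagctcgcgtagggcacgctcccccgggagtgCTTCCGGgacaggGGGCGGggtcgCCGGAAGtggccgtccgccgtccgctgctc
The NELFB window holds 7 GC boxes and no ETS-type motif, and its GC content is 78.4% with 36 CG pairs. The CTR9 window holds 1 GC box and 2 ETS-type motifs, and its GC content is 66.8% with 26 CG pairs. All 10 members have at least 1 listed promoter, 11 in all since SUPT5H has 2. The windows of these 2 overlap and hold the same GC box. GC boxes occurred in 10 of the 11 and in 42.6% of 35097 promoters listed, and ETS-type motifs in 4 of the 11 and in 8.52% of all. TATAAA occurred in 0 of the 11 and in 10.7% of all, the E-box CACGTG in 0 and in 6.34%, and the CRE motif TGACGTCA in 0 and in 1.65%. The median promoter had 58% GC and 11 CG pairs, and the members' windows ran from 56% to 78.4% and from 17 to 36. These matches describe the letters only.

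Of the NELF genes, NELFA, NELFB and NELFCD rose in AF9 KD cells, and none passed the test in MLL1 KD cells. NELFB encodes the subunit that joins NELFE to the rest of the complex. In the AF9 experiment control replicate 1 had 30.6 CPM of it and control replicate 2 had 38.0, whereas the AF9 KD replicates had 58.9 and 60.8 CPM, so that the groups did not overlap. The rise was 1.75-fold (95% CI of the log2 fold change 0.54 to 1.07), or 0.81 on the log2 scale (SE 0.12, edgeR adjusted p = 0.00045), and NELFB was the one member past 1.5-fold. With offsets for GC content, described below, it was 0.26 (edgeR adjusted p = 0.0673). The MLL1 experiment gave lower values after knockdown: NELFB had 73.1, 63.6 and 65.7 CPM in control replicates 1 to 3, and 60.2, 49.4 and 51.6 CPM in MLL1 KD replicates 1 to 3. The KD libraries were all below the control libraries, with a mean of 79.7% of control and a log2 fold change of -0.33 (SE 0.14, edgeR adjusted p = 0.486, unadjusted p = 0.0453). With the replicate number as a block the change was -0.33 with an edgeR adjusted p of 0.0306, and with replicates 2 and 3 alone it was -0.36 with 0.0061.

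NELFA, which contacts the polymerase, stood at 27.4 and 34.3 CPM in the 2 controls of the AF9 experiment and at 38.5 and 46.4 CPM after AF9 KD. The groups did not overlap, and the log2 fold change was 0.47 (SE 0.14, edgeR adjusted p = 0.0229). It did not pass without control replicate 1 (adjusted p = 0.2997), without AF9 KD replicate 2 (adjusted p = 0.0872) or with GC content offsets (log2 fold change 0.01, adjusted p = 0.957). For MLL1 KD the values of NELFA were 91.2, 82.2 and 82.5 CPM in the controls and 104, 69.3 and 70.0 CPM in MLL1 KD cells. Replicate 1 of the KD cells lay above all control libraries and the other two below them, and the log2 fold change was -0.07 (SE 0.18, edgeR adjusted p = 0.951). With replicates 2 and 3 alone it was -0.25 with an edgeR adjusted p of 0.0391.

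NELFCD, whose protein holds NELFA in the complex, stood at 50.6 and 44.1 CPM in the 2 controls of the AF9 experiment and at 61.8 and 59.5 CPM after AF9 KD. The groups did not overlap, and the log2 fold change was 0.36 (SE 0.11, edgeR adjusted p = 0.0263). DESeq2 gave the same change with an adjusted p of 0.0573, and without control replicate 1 or 2 edgeR's adjusted p was 0.0617 or 0.291. Its values were 112, 60.6 and 66.6 CPM in control cells and 112, 63.5 and 64.0 CPM in MLL1 KD cells of the MLL1 experiment. Replicate 1 of either group was thus 1.76 times the mean of the other two, a larger gap than between control and KD cells of any number (log2 fold change 0.01, SE 0.31, edgeR adjusted p = 0.997).

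NELFE had 11.4 and 14.8 CPM in the controls of the AF9 experiment and 15.5 and 16.8 CPM in AF9 KD cells. The groups did not overlap, but the log2 fold change of 0.31 (SE 0.17) did not pass (edgeR adjusted p = 0.185). NELFE of the MLL1 experiment had 12.8, 10.1 and 11.1 CPM in control cells and 10.7, 9.66 and 13.2 CPM in MLL1 KD cells, on 68 to 122 counts a library, with overlapping groups (log2 fold change -0.02, SE 0.21, edgeR adjusted p = 0.99).

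**Figure D2:**
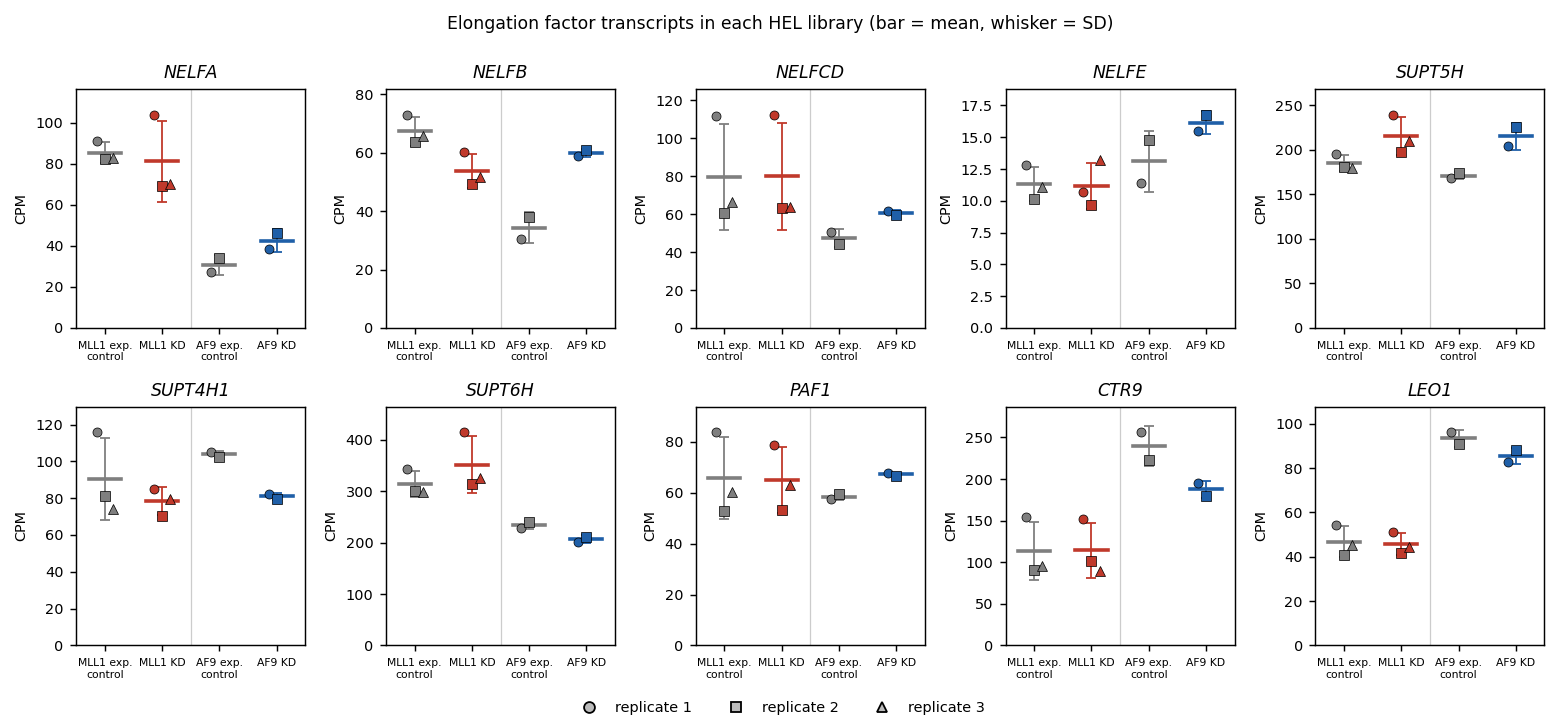
CPM of each member (y axes from 0) in each library of the 4 groups, with circles for replicate 1, squares for replicate 2 and triangles for replicate 3, the group mean as a bar and the SD as whisker. NELFB has 30.6 and 38.0 CPM in the controls of the AF9 experiment against 58.9 and 60.8 CPM in AF9 KD cells, and in the MLL1 experiment NELFCD, CTR9 and PAF1 have their highest values in replicate 1 of both groups.

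The 2 genes of DSIF moved in opposite directions in AF9 KD cells. SUPT5H, which encodes the large subunit SPT5, a target of P-TEFb, measured 168 and 174 CPM in the controls, against 205 and 226 CPM after AF9 KD. Its groups did not overlap, and it rose by a log2 fold change of 0.33 (SE 0.09, edgeR adjusted p = 0.0180). SUPT4H1, which encodes the zinc-finger partner SPT4, had 105 and 103 CPM in control cells and 82.4 and 79.5 CPM in AF9 KD cells. It fell by 0.36 on the log2 scale (SE 0.09, edgeR adjusted p = 0.0111), also without overlap. Neither passed without control replicate 1 (adjusted p = 0.2404 for SUPT5H and 0.143 for SUPT4H1) or without control replicate 2 (0.1201 and 0.0639), though the log2 fold changes stayed at 0.31 and 0.35 for SUPT5H and at -0.34 and -0.38 for SUPT4H1. With GC content offsets SUPT5H had 0.11 (adjusted p = 0.313).

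SUPT5H of the MLL1 experiment had 196, 181 and 179 CPM in control cells and 239.7, 198 and 210.1 CPM in MLL1 KD cells, so that all KD libraries were above all control libraries. The log2 fold change of 0.22 (SE 0.12) did not pass in edgeR's test (adjusted p = 0.611). It passed with replicates 2 and 3 alone (0.18, edgeR adjusted p = 0.0281). SUPT4H1 had 116, 81.1 and 74.2 CPM in control cells and 85.2, 70.3 and 79.5 CPM in MLL1 KD cells, with overlap (log2 fold change -0.21, SE 0.19, edgeR adjusted p = 0.808).

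Within a library, the ratio of SUPT5H to SUPT4H1 does not depend on the scaling of libraries. This ratio and that of CTR9 to PAF1, from 6 computed in each experiment, were chosen after the values of the members were seen. The libraries lay apart in all 6 ratios in the AF9 experiment and in 2 of 6, SUPT5H to SUPT4H1 and NELFB to NELFA, in the MLL1 experiment. Single genes lay apart in 66% of those tested in the AF9 experiment and in 17.7% in the MLL1 experiment, and the share among other pairs of genes was not computed. The ratios carry no GC content offsets, and GC content is 56.8% in SUPT5H and 50.9% in SUPT4H1, and 41.4% in CTR9 and 55.4% in PAF1. In TPM the SUPT5H to SUPT4H1 ratio was 0.389 and 0.411 in the controls of the AF9 experiment and 0.602 and 0.69 in AF9 KD cells, 1.62 times as high in the mean. In the MLL1 experiment it was 0.41, 0.542 and 0.587 in control cells and 0.683, 0.684 and 0.641 in MLL1 KD cells, 1.3 times as high. The KD libraries lay above the control libraries in both experiments (two-sided exact permutation tests, p = 0.33 with 2 against 2 libraries and p = 0.1 with 3 against 3, in each case the smallest possible). Since the readthrough gene overlaps SUPT4H1, its part of the ratio is uncertain.

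SUPT6H encodes SPT6, a histone chaperone that binds elongating Pol II. It had 229 and 239.9 CPM in control cells and 201 and 212 CPM in AF9 KD cells, without overlap, and a log2 fold change of -0.18 (SE 0.09) that did not pass (edgeR adjusted p = 0.151). Without AF9 KD replicate 2 it passed at -0.22 (edgeR adjusted p = 0.0448). SUPT6H of the MLL1 experiment had 343, 299.7 and 299 CPM in control cells and 415, 314 and 326 CPM in MLL1 KD cells, with overlap (log2 fold change 0.16, SE 0.14, edgeR adjusted p = 0.788).

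Of the PAF1 complex subunits, CTR9 fell in AF9 KD cells and PAF1 and LEO1 did not pass the test. CTR9, the scaffold of the complex, measured 256 and 223 CPM in the controls, against 195 and 180.2 CPM after AF9 KD. The groups did not overlap, and CTR9 fell by 0.35 on the log2 scale (SE 0.10, edgeR adjusted p = 0.0178). It did not pass without control replicate 1 (adjusted p = 0.355), with total counts in place of TMM factors (log2 fold change -0.26, adjusted p = 0.0597) or with GC content offsets (-0.21, adjusted p = 0.0733). PAF1, which binds CTR9, had 57.5 and 59.3 CPM in control cells and 67.7 and 66.7 CPM in AF9 KD cells (log2 fold change 0.20, SE 0.10, edgeR adjusted p = 0.14). LEO1, which forms a pair with PAF1, had 96.2 and 90.6 CPM in control cells and 82.9 and 88.0 CPM in AF9 KD cells (log2 fold change -0.13, SE 0.10, edgeR adjusted p = 0.334). Neither gene's groups overlapped, with PAF1 higher and LEO1 lower in AF9 KD cells. With total counts PAF1 passed at 0.29 (edgeR adjusted p = 0.0381).

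The ratio of CTR9 to PAF1 in TPM was 2.2 and 1.86 in the controls of the AF9 experiment and 1.42 and 1.33 in AF9 KD cells, again apart (exact permutation test, two-sided p = 0.33, the smallest possible). In the MLL1 experiment it was 0.906, 0.846 and 0.787 in control cells and 0.956, 0.939 and 0.703 in MLL1 KD cells, with overlap (exact permutation test, two-sided p = 0.9). The controls of the 2 experiments thus differed in this ratio, which was not tested since they were made apart.

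In the MLL1 experiment CTR9 had 154, 90.6 and 95.9 CPM in control cells and 152, 101 and 89.8 CPM in MLL1 KD cells (log2 fold change 0.01, SE 0.27, edgeR adjusted p = 0.993). PAF1 had 83.8, 52.9 and 60.2 CPM in control cells and 78.7, 53.3 and 63.1 CPM in MLL1 KD cells (log2 fold change -0.01, SE 0.22, edgeR adjusted p = 0.992). LEO1 had 54.4, 40.9 and 45.3 CPM in control cells and 51.4, 41.8 and 44.6 CPM in MLL1 KD cells (log2 fold change -0.03, SE 0.16, edgeR adjusted p = 0.979). In each of these genes the groups overlapped, and replicate 1 was the highest library of both groups. CTR9 replicate 1 was 1.65 times the mean of replicates 2 and 3 in control cells and 1.59 times in MLL1 KD cells, and PAF1 replicate 1 was 1.48 and 1.35 times. Replicate 1 of the other members was 0.937 to 1.76 times that mean, the lowest in NELFE of MLL1 KD cells and the highest in NELFCD.

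Counted together, 0 of the 10 members passed edgeR's test in MLL1 KD cells, where 0.0625% of 14393 genes tested passed. At an unadjusted p under 0.05 there was 1 member, NELFB, where 9.97% of genes were, and DESeq2 passed 0 members and 1.92% of genes. The 95% CI of the fold change ran from 0.614 to 1.65 for NELFCD, the widest, and from 0.962 to 1.41 for SUPT5H. The intervals of NELFCD and of CTR9 (0.657 to 1.55) thus do not exclude a 1.5-fold change in either direction. Those of NELFB (lower limit 0.639) and SUPT4H1 (lower limit 0.64) do not exclude a 1.5-fold fall. With the replicate block 1 member passed where 13.6% of genes did, and with replicates 2 and 3 alone 3 members passed where 18.6% did. The groups lay apart in 2 members, NELFB and SUPT5H, and in 17.7% of genes tested.

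In AF9 KD cells 6 of the 10 members passed, 4 higher and 2 lower, where 29% of 13334 genes tested passed, 14.4% higher and 14.5% lower. With total counts in place of TMM factors 19.1% of genes were higher and 9.73% lower, and of the members 5 were higher and 1 lower. At 1.5-fold 1 member was called, where 13.1% of genes were. The groups lay apart in all 10 members, and they did so in 66% of genes tested. The median log2 fold change of the members was 0.25 and that of all genes 0.01, and the members' median was 0.02 with GC content offsets, 0.15 without control replicate 1 and 0.34 with total counts. Without control replicate 1 only NELFB passed, where 11.3% of genes did, and without control replicate 2 NELFA, NELFB and CTR9 did, where 20.6% of genes did. With the replicate block 6 members passed where 40.8% of genes did. With only 2 libraries a group, an exact permutation test of a single gene cannot go below p = 0.33.

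**Figure D3:**
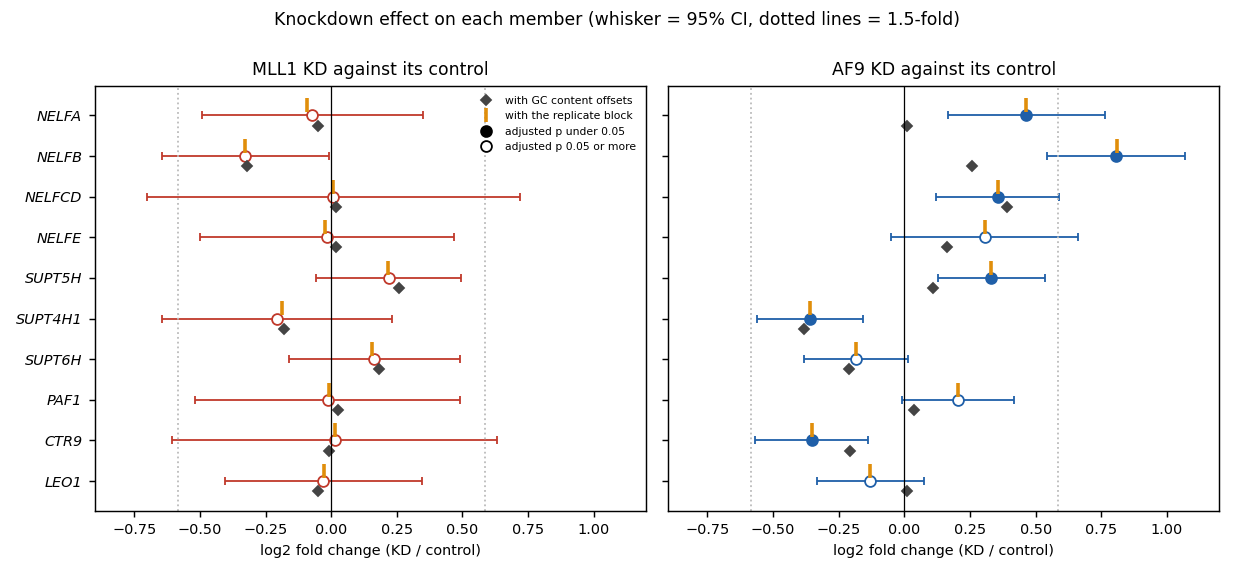
Log2 fold change (KD over control, x axis) of each member in MLL1 KD and AF9 KD cells, as circles with the 95% CI, filled where the adjusted p is under 0.05, with diamonds for the fit with GC content offsets, vertical ticks for the fit with the replicate block and dotted lines at 1.5-fold. No circle is filled for MLL1 KD, 6 are filled for AF9 KD, and the NELFB diamond for AF9 KD stands at 0.26 where its circle stands at 0.81.

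The AF9 KD effect on the members ran along with their GC content. GC content of the merged exons was 63.4% in NELFB and 61.6% in NELFA, which rose, and 41.4% in CTR9, which fell. Over the 10 members Spearman's rho between GC content and log2 fold change was 0.71, and over 13036 genes tested with a known GC content it was 0.48. These are descriptions across genes of the same 4 libraries. The 817 genes within 2 percentage points of NELFB's GC content had a median log2 fold change of 0.57, the 1119 near NELFA had 0.44, and the 2459 near CTR9 had -0.14. NELFCD at 48.3% GC had 0.36 and SUPT4H1 at 50.9% had -0.36, where the medians of genes of like content were -0.03 and 0.02. How widely those genes spread around their medians was not measured.

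With offsets that take out each library's trend with GC content, 2 members passed, NELFCD (log2 fold change 0.39, edgeR adjusted p = 0.0087) and SUPT4H1 (-0.38, edgeR adjusted p = 0.0040), where 26.4% of genes did. NELFB, SUPT5H, NELFA and CTR9 did not pass, at the values given above, and LEO1 changed its sign to 0.01. By these values NELFCD rose most, and CTR9 at -0.21 had no larger a change than SUPT6H at -0.21. With offsets and the replicate block together 3 members passed, NELFB, NELFCD and SUPT4H1, where 31% of genes did. NELFB was at the threshold there (log2 fold change 0.26, edgeR adjusted p = 0.0498), and the replicate numbers of the AF9 experiment are not taken as pairs. In MLL1 KD cells rho was -0.28 over the members and -0.07 over all genes, and no member passed with the offsets, where 0.0486% of genes did. With offsets and the replicate block together NELFB and SUPT5H passed there (edgeR adjusted p = 0.0321 and 0.0279), where 13.6% of genes did. The part of GC content in the AF9 KD values was not tested beyond these fits.

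**Figure D4:**
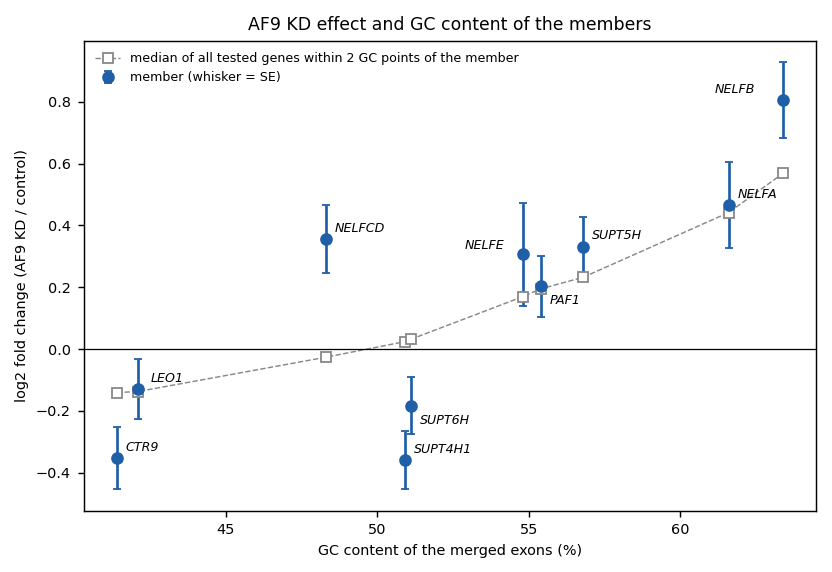
GC content of the merged exons (x axis, %) and log2 fold change in AF9 KD cells (y axis) of the 10 members as filled circles with the SE as whisker, and the median of all tested genes within 2 GC points of each member as open squares. NELFB and NELFA are at the right with 0.81 and 0.47, CTR9 is at the left with -0.35, and NELFCD and SUPT4H1 lie farthest from the squares for their GC content.

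The knockdown effects of both experiments were compared in 1 fit of all 10 libraries, for 12731 genes tested in both. The difference passed for NELFB alone, at -1.11 on the log2 scale (MLL1 KD effect minus AF9 KD effect, SE 0.20, edgeR adjusted p = 0.0390), where 1.35% of genes passed. NELFB was lower in MLL1 KD cells in 3 of 3 libraries and higher in AF9 KD cells in 2 of 2. With GC content offsets the difference was -0.58 (edgeR adjusted p = 0.272), where 0.408% of genes passed. With offsets and the block 2 members passed, NELFB and SUPT6H, where 14.6% of genes did. With any single library left out other than MLL1 KD replicate 1 it lay between -1.27 and -0.96 and did not pass, where 0.00784% to 0.55% of genes did. Without MLL1 KD replicate 1 its adjusted p was 0.0093, where 7.52% of genes passed. With the replicate block NELFA (-0.54), SUPT6H (0.36) and CTR9 (0.38) passed as well, at edgeR adjusted p values of 0.0224, 0.0260 and 0.0263, where 24.5% of genes did. For the 9 other members the fit without the block gave differences from -0.52 for NELFA to 0.39 for CTR9.

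Other factors of the same steps were followed in 5 lists that hold 71 genes of the tables. In MLL1 KD cells 0 of 71 passed edgeR's test, 5 had an unadjusted p under 0.05, beside 9.97% of all genes, and DESeq2 passed 1. With the replicate block, where 13.6% of all genes passed, 7 did, 2 higher (PPP1CC and RPRD2) and 5 lower (among them NCBP2, CCNK, NCBP1 and TOX4). The median log2 fold change was 0.05, beside 0.01 for all genes tested. In AF9 KD cells 69 were tested and 18 passed, 9 higher and 9 lower, with a median of 0.01, the same as for all genes, of which 29% passed. TCEA3 and POLR2M did not reach the minimum level and were not tested. With GC content offsets 14 passed, 10 higher and 4 lower, where 26.4% of all genes did, and with the replicate block 28, where 40.8% did.

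By list, none of the 3 other PAF1 complex subunits (CDC73, RTF1 and WDR61) passed in AF9 KD cells, where 14.4% of all genes were higher and 14.5% lower. WDR61 passed, higher, with GC content offsets and with the replicate block, and the median of the 3 was -0.17 without and 0.03 with the offsets. Of 14 genes for chaperones and for histone methylation or ubiquitylation during elongation 2 were higher and 2 lower. UBE2B, a ubiquitin-conjugating enzyme that works with RNF20 and RNF40 on histone H2B, had the largest fall of all lists, from 55.9 ± 4.09 to 35.2 ± 0.14 CPM (log2 fold change -0.67, SE 0.11, edgeR adjusted p = 0.00082). Of 18 tested genes for TFIIS, Elongin and related helpers 3 were higher and 2 lower. ELOB, a subunit of Elongin, rose from 24.4 ± 4.86 to 47.3 ± 1.74 CPM (0.96, SE 0.14, edgeR adjusted p = 0.00034), and PHF3, a Pol II binding protein, fell from 242 ± 8.58 to 179.7 ± 5.59 CPM (-0.43, SE 0.09, edgeR adjusted p = 0.0038). With GC content offsets PHF3, at 36.8% GC, had -0.22 (edgeR adjusted p = 0.0460).

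Of 19 genes of Integrator, the complex that ends transcription of paused Pol II, and of its PP2A arm 4 were higher and 2 lower. With GC content offsets 5 were higher and 0 lower, where 12.2% of all genes were higher and 14.2% lower. Of these 5 INTS1 and INTS9 were also higher without the offsets, and INTS2, INTS7 and INTS14 passed only with them. INTS1 rose from 29.1 ± 4.41 to 63.7 ± 9.43 CPM (1.13, SE 0.14, edgeR adjusted p = 0.00011) and INTS5 from 22.4 ± 2.12 to 32.7 ± 2.06 CPM (0.55, SE 0.13, edgeR adjusted p = 0.0067). Both are rich in GC, at 64.7% and 59.8%, and with GC content offsets INTS1 had 0.51 (edgeR adjusted p = 0.0019) and INTS5 0.20 (edgeR adjusted p = 0.253). Of 15 genes for PP1 and its nuclear partners, capping and termination 0 were higher and 3 lower, among them PPP1CC, a catalytic subunit of PP1, from 416 ± 7.58 to 297 ± 12.9 CPM (-0.48, SE 0.09, edgeR adjusted p = 0.0020). With GC content offsets 2 genes of that list were higher (RAMAC and NCBP1) and 1 lower (PPP1CC). With 1 library or another left out INTS5, PPP1CC and PHF3 did not pass (highest adjusted p 0.121, 0.0534 and 0.0962), and INTS1, ELOB and UBE2B passed in each of these fits. All SDs here are of n = 2.

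The genes most like each group were found by Pearson's r over the 10 libraries, on log2 CPM centred on each experiment's mean, among 12721 other genes. For the mean of the 4 NELF genes they were RBM38 (r = 0.986), CACTIN (0.986) and ARAF (0.985). For DSIF with SPT6 they were DNAJC14 (0.974), POLDIP3 (0.966) and UFD1 (0.965), and for the 3 PAF1 subunits CEP85 (0.986), YKT6 (0.983) and DHCR7 (0.981). The libraries share the high replicate 1 of the MLL1 experiment and the AF9 KD shift, and 168 to 293 genes reached an r of 0.9 for each group, so these genes are a sample of many. Within groups, LEO1 followed the other PAF1 subunits at 0.919, CTR9 at 0.784 and PAF1 at 0.694. NELFA, NELFB, NELFCD and NELFE followed the mean of the other NELF genes at 0.859, 0.768, 0.574 and 0.558. SUPT6H followed the 2 DSIF genes at 0.705, and SUPT5H and SUPT4H1 followed the mean of the others of their group at -0.06 and 0.09.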

How the data were processed

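HEL cells were profiled by strand-specific polyA RNA-seq. According to the study's methods and the submitters' processing notes, the authors filtered reads with fastp 0.13.1, mapped them to hg38 with HISAT2 2.1.0 and counted them per gene with featureCounts 1.6.1. The annotation is not given in the sources used here. The deposited values are raw counts per gene and library, with no normalization. CUT&Tag and PRO-seq libraries of the series were not analysed here.

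Counts were analysed per experiment with edgeR 4.0.16 in R 4.3.3 (TMM factors, glmQLFit and glmQLFTest, two-sided, Benjamini-Hochberg adjustment over the genes tested). Genes were tested where their TPM averaged 1 or more, with lengths and GC content from the merged exons of GENCODE version 44 (92.2% of 28103 symbols matched), and a mean CPM of at least 1 was required of genes without a length. A gene passed the test at an adjusted p under 0.05 and was called if it also changed at least 1.5-fold. Log2 CPM used a prior count of 2. Alternatives were DESeq2 1.42.0 (Wald test), its size factors or total counts, other filters, transcript length or GC content offsets (lowess, span 0.3), the replicate block, replicates 2 and 3 of the MLL1 experiment alone, and each library left out. Intervals are at the 95% level. Figures used matplotlib 3.10.9.

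Named genes are the 10 members, KMT2A and MLLT3, in each experiment up to 3 largest rises and 3 largest falls among the pathway genes that passed, and the 3 genes most alike in each of 3 groups. Others are named to account for a small count or a limit. Some items are not reported here. Members, lists and tests were chosen with earlier results of these data known.

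Replicate numbers were taken from the labels, and in the MLL1 experiment the data pair replicate 1 only. Deviations of same-numbered control and KD libraries from their group means had correlations of 0.648, 0.326 and 0.352. Replicates 2 and 3 were as alike across numbers (0.359 and 0.369), so the data do not pair these by number. In the AF9 experiment, with 2 pairs, the correlation was 0.157 and the numbers are not taken as pairs. No library pair agreed within sampling noise (chi-square per degree of freedom 2.37 to 56.6).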

Additional observations from a re-analysis of the deposited data

Results flagged for a closer look

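NELFB was singled out because it passed the test of a difference between the experiments. The MLL1 KD effect minus the AF9 KD effect was -1.11 on the log2 scale (95% CI -1.56 to -0.66, edgeR adjusted p = 0.0390 for the interaction). The separate effects were -0.33 for MLL1 KD and 0.81 for AF9 KD. Over all alternatives the adjusted p ran from 6.6e-05 with DESeq2 to 0.272 with edgeR and GC content offsets, where the difference was -0.58. The knockdowns were made in separate experiments, so target and experiment cannot be told apart.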

How the results depend on the processing

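The members that passed numbered 0 in MLL1 KD cells, 6 in AF9 KD cells and 1 in the difference. With the replicate block these counts were 1, 6 and 4, with GC content offsets 0, 2 and 0, and with both together 2, 3 and 2. With GC content offsets 0.0486%, 26.4% and 0.408% of all genes passed, and with both together 13.6%, 31% and 14.6% did. Replicates 2 and 3 alone gave 3 members in the MLL1 experiment, and a 1.5-fold minimum gave 1 in the AF9 experiment. Leaving out 1 library of the MLL1 experiment at a time gave 0 members in MLL1 KD cells each time. Only 0% to 0.368% of all genes passed there, so this 0 says little about the members. In the difference the same step gave 0 to 2 members, where 0.0708% to 7.52% of genes passed. Leaving out a library of the AF9 experiment leaves 1 in a group, which is assumed to vary like the others. The members' median log2 fold change in AF9 KD cells then ran from 0.15 to 0.26. With the replicate block the pathway genes that passed rose from 0 to 7 in the MLL1 experiment and from 18 to 28 in the AF9 experiment. The block changed no other result of a member's test in either experiment. DESeq2, its size factors, total counts, the other filters and transcript length offsets left each of the 3 member counts within 1.5 times, though total counts moved the median difference of all genes to -0.11. The cause of these shifts was not tested. Signs reversed mostly where the change was near 0. In MLL1 KD cells GC content offsets gave NELFE 0.020, PAF1 0.027 and CTR9 -0.0099, GC content offsets with the replicate block 0.012, 0.030 and -0.0080, and transcript length offsets NELFE 0.0016 and PAF1 0.00079. Replicates 2 and 3 alone gave NELFCD -0.0031, NELFE 0.12 and PAF1 0.040. With 1 library left out the MLL1 KD values ran from -0.29 to 0.033 for NELFA, -0.32 to 0.33 for NELFCD, -0.15 to 0.079 for NELFE, -0.33 to 0.013 for SUPT4H1, -0.17 to 0.20 for PAF1, -0.25 to 0.30 for CTR9 and -0.12 to 0.092 for LEO1. In AF9 KD cells LEO1 had 0.011 with GC content offsets and 0.0089 with the block added. In the difference the same 2 settings gave SUPT5H 0.16 and 0.15, PAF1 0.00035 and 0.0044, and LEO1 -0.049 and -0.046, and PAF1 ran from -0.36 to 0.0047 with 1 library left out. In the AF9 experiment, where the replicate number is only a number, the block raised the share of all genes that passed from 29% to 40.8%. NELFE, on 68 to 224 counts a library, is the member that depth limits most.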
